A study of Homo sapiens with 2 samples.

Results

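The subject here is 10 host genes that encode splicing factors and other RNA processing proteins, and the circular RNAs (circRNAs) listed for them in SW620 cells, a human colorectal cancer cell line. The hosts are PRPF6, RSRC1, HNRNPC, CELF1, GPATCH8, GPATCH2, DDX17, DROSHA, FTO and ADARB1. A circRNA was counted for a host when the host field of the table, split at commas, held that symbol alone, which gave 12 of the 1485 circRNAs. No row held one of these symbols beside another name. The tested library, called HD-SB, came from cells given 1 mg/mL of a herb pair for 24 h, labelled Hedyotis diffusa-Sculellaria barbata, and the other library came from control cells whose handling the labels do not describe further. With 1 library per group there is no replicate error, no test was possible, and no difference below is a tested effect of the herbs.

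A circRNA forms when the spliceosome joins the end of an exon back to the start of the same or an earlier exon, so it carries a back-splice junction that the linear mRNA lacks. The same machinery and RNA-binding proteins that splice pre-mRNA therefore also make circles, and their own genes give circles too. A circle from a gene says nothing by itself of the protein level of that gene. RNase R, used before library preparation, digests linear RNA and leaves circles.

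Each value is a number of reads across 1 back-splice junction. The HD-SB library held 11570 such reads on 1475 circRNAs and the control library 91 reads on 32 circRNAs, 127.1 HD-SB reads for each control read. A circRNA was listed in a library from 2 reads on, and 1 read is worth 86.4 CPM in HD-SB and 10989 CPM in the control (CPM, reads per 1000000 listed back-splice reads of that library). Of the colorectal epithelium markers, 4 of 20 were hosts, and in HD-SB EPCAM had 20 reads over circRNAs of 9, 8 and 3, VIL1 had 18 and EPHB2 16, and none was listed in the control. Of the fibroblast and smooth muscle, leukocyte and endothelium markers 0 were hosts in either library.

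The junctions of the circle listed in both libraries and of 4 others that the results below refer to are shown first. Those of HNRNPC and ADARB1 hold untranslated or non-coding bases and are not shown. The table's positions are not those of the GRCh38 annotation, so each circle was placed by its span. The span was compared with the distance between the start of any exon and the end of the same or a later exon of the host in GENCODE 29. All 12 circles had exactly 1 such pair of exon ends at the exact distance, and so had 1262 of all 1345 circRNAs whose single host was found (93.8%). The shift between table and annotation was the same for every circle of a host in 177 of the 183 hosts with at least 2 placed circles, FTO and DROSHA among them. In the lines below the end of the last exon is in lower case and the start of the first exon is in capitals, 15 bases of each, 5′ to 3′ on the strand of the gene, from the GENCODE 29 transcripts on GRCh38.

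RSRC1 exon 3 to exon 2: aagcagaacaagaagAAATGGGACGTCGGT
FTO exon 7 to exon 5: aagatggagggtgtgATGATCTCAATGCCA
PRPF6 exon 15 to exon 13: gcccccaccgcccggTGTGTAGCCCACAAT
DROSHA exon 20 to exon 18: cccaactccctcgagCATGCAATGATGCTA
DROSHA exon 27 to exon 25: gaaggacacttaactGACCTGCGCGAAGTC

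The RSRC1 line belongs to the one circle listed in both libraries, and its capitals hold the ATG of the annotated start codon after 2 untranslated bases. The FTO line belongs to the more abundant of the FTO circles, which both close from the end of exon 7. The DROSHA lines share nothing, since their exons do not overlap. In GRCh38 the outer exon ends lie at chr3:158122103-158123991 for RSRC1 on the plus strand, at chr16:53873786-53888951 for FTO on the plus strand, at chr20:64022757-64026058 for PRPF6 on the plus strand, and at chr5:31448547-31451640 and chr5:31421272-31424471 for DROSHA on the minus strand.

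All 12 circRNAs were listed in HD-SB, with 184 reads, 1.59% of that library (95% Clopper-Pearson interval 1.37 to 1.84), and 1 was listed in the control, with 4 reads, 4.40% (1.21 to 10.9). The intervals take counting error alone into account, and reads copied by amplification are not independent molecules. They overlap, and the control share was 2.76 times the HD-SB share, with an interval of 0.745 to 7.20 that includes an equal share. A circRNA enters the control list with at least 2 reads, 2.20% of that library. Once any of the 12 was listed, the control share therefore had to exceed 1.59%, and the ratio is a description alone. The whole control share came from RSRC1. Without it the other 9 hosts held 116 HD-SB reads, 1.00% (0.829 to 1.20), and were not listed in the control, where an equal share would have given 0.912 reads in all.

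**Figure D1:**
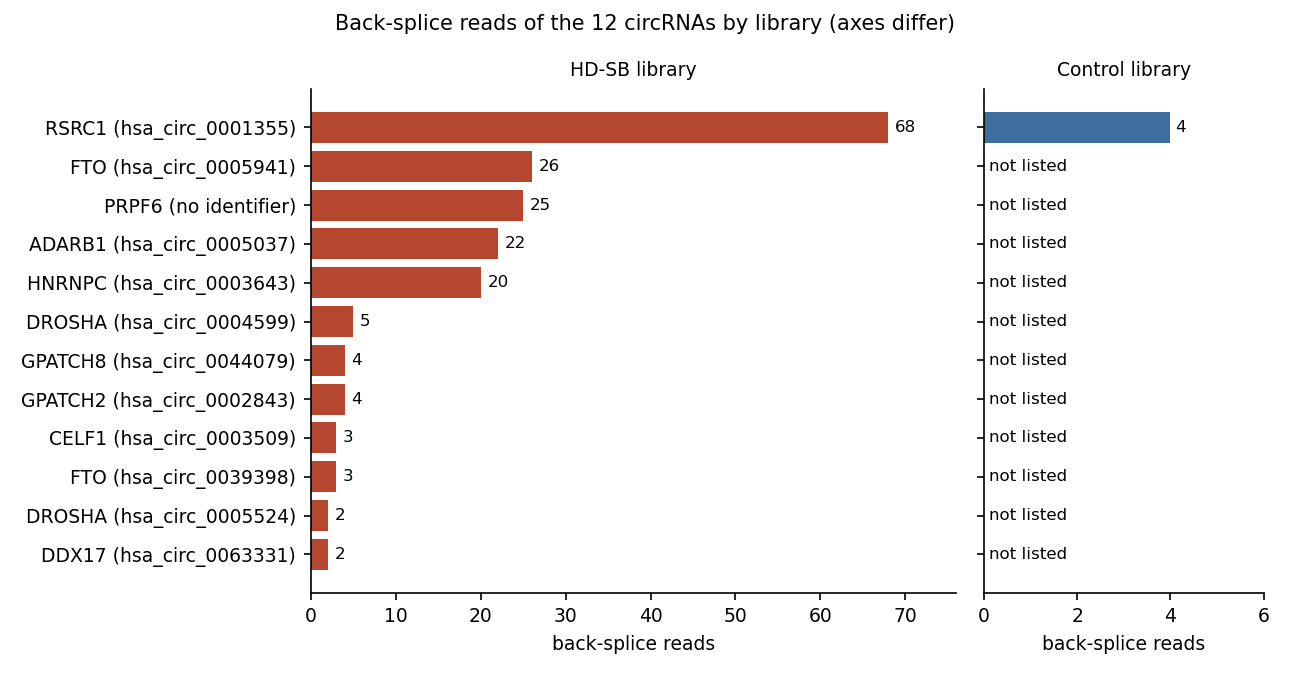
Back-splice reads (x axes, which differ in range) of the 12 circRNAs (rows) in the HD-SB library (left) and the control library (right), 1 library each. RSRC1 has 68 and 4 reads, 4 further circRNAs have 20 to 26 HD-SB reads, 7 have 2 to 5, and none of these 11 is listed in the control.

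The reads were uneven among the hosts. The 5 most abundant circles, from RSRC1, FTO, PRPF6, ADARB1 and HNRNPC, held 161 of the 184 HD-SB reads (87.5%), and the other 7 had 2 to 5 reads each, 23 in all. At least 20 reads were seen for 5 of the 12 circles (41.7%), against 5.29% of all circRNAs listed in HD-SB, while the median was 4.5 reads, against 5 over the library. The 10 hosts were named with earlier results of this table in view, so their place in the library's order is a description.

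Among the splicing factors, RSRC1, a protein rich in arginine and serine that is related to the SR family of splicing regulators, had the most reads. Its circle (hsa_circ_0001355, chromosome 3, 157839892 to 157841780 as deposited) had 68 reads in HD-SB, 5877 CPM or 0.588% (0.457 to 0.744), against 4 in the control, 43956 CPM or 4.40% (1.21 to 10.9). It ranked 15 of 1475 in HD-SB, and in the control 3 circRNAs had more reads and 1 other had as many. The control share was 7.48 times the HD-SB share (counting interval 1.98 to 20.04), but its direction was fixed by listing. A circRNA enters the control list with at least 2 reads, 2.20% of that library, so once listed RSRC1 could not have had a ratio under 3.74, and the ratio is given as a description alone. The control reads at an equal share would have been 0.535. The same holds for all 22 circRNAs listed in both libraries, of which the most abundant had 136 HD-SB reads where 254.3 are needed for an equal share of 2.20%. Of the 22, 20 (90.9%) had counting intervals above an equal share, and nothing is read from that count. Among them RSRC1 had the 3rd most HD-SB reads. With control values scaled by the median ratio of the 22, the direction turned and RSRC1 was higher in HD-SB, with a log2 ratio of 1.63. Scaled values compare RSRC1 with the 22, whose median control over HD-SB ratio was 24.6. Listing affects those ratios as well, so the turned direction is also a description alone.

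**Figure D2:**
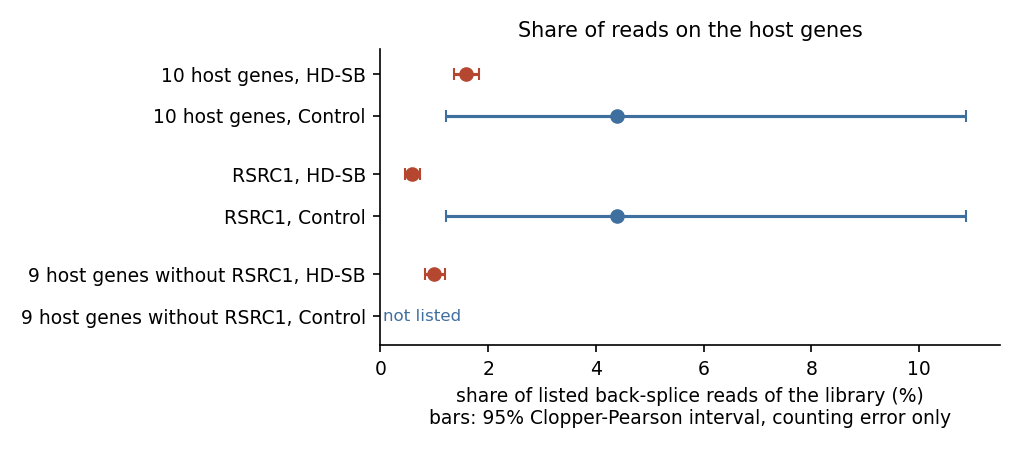
Share of listed back-splice reads (x axis, percent) in the HD-SB library and the control library for all 10 hosts, for RSRC1 and for the other 9 hosts; points are shares and bars are 95% Clopper-Pearson intervals for counting error. The control interval of 1.21% to 10.9% is the same for the 10 hosts and for RSRC1, because all 4 control reads are from RSRC1.

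PRPF6, which bridges the U5 and U4/U6 small nuclear ribonucleoproteins in the tri-snRNP of the spliceosome, gave 1 circle with 25 reads in HD-SB, 2161 CPM or 0.216% (0.140 to 0.319), and was not listed in the control. It lay on chromosome 20 from 62654110 to 62657411 as deposited, and its circBase field was empty, unlike those of the other 11 circles. HNRNPC, an hnRNP protein that coats nascent transcripts at uridine tracts, gave hsa_circ_0003643 (chromosome 14, 21698478 to 21702388 as deposited) with 20 reads, 1729 CPM or 0.173% (0.106 to 0.267), and was not listed in the control. HNRNPC has near-identical intronless relatives, and how reads that fit several places were handled is not given in the sources used here, so its count is uncertain to that extent. Both circles therefore stand in the upper part of the HD-SB list, at rank 49 for PRPF6 and rank 70 for HNRNPC.

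The remaining splicing-related hosts were near the listing minimum in HD-SB and not listed in the control. CELF1, which binds GU-rich elements and regulates alternative splicing and mRNA decay, had 3 reads (hsa_circ_0003509, 259 CPM). GPATCH8 and GPATCH2, named for the G-patch, a glycine-rich motif found in RNA processing proteins, had 4 reads each (hsa_circ_0044079 and hsa_circ_0002843, 346 CPM each). Their intervals reached from 0.00535% to 0.0758% for CELF1 and from 0.00942% to 0.0885% for GPATCH8 and for GPATCH2, so these hosts cannot be ordered among themselves.

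DROSHA, the nuclease that cuts primary microRNA transcripts in the nucleus, gave 2 circles in HD-SB with 5 reads (hsa_circ_0004599) and 2 reads (hsa_circ_0005524), and none was listed in the control. The first held 71.4% of the 7 DROSHA reads, with an interval of 29.04% to 96.3% that does not set one above the other. DDX17, a DEAD-box helicase that works in splicing and with DROSHA in microRNA processing, had 2 reads in HD-SB (hsa_circ_0063331, 173 CPM), which is the listing minimum.

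The enzymes that write or erase marks on RNA bases were among the more abundant hosts in HD-SB, and neither was listed in the control. FTO, which removes N6-methyladenosine and related methyl marks, had 26 reads on hsa_circ_0005941 (chromosome 16, 53907698 to 53922863 as deposited), 2247 CPM or 0.225% (0.147 to 0.329). A second FTO circle, hsa_circ_0039398 (53878067 to 53922863), had the same end and 3 reads. The shorter one held 89.7% of the 29 FTO reads (72.6 to 97.8). With a common end at exon 7, the start at exon 5 thus had more reads in HD-SB than the start at exon 4. The interval treats every read as an independent molecule, which was not established. ADARB1, the adenosine deaminase ADAR2 that edits adenosine to inosine in double-stranded RNA, had 22 reads on hsa_circ_0005037 (chromosome 21, 46548317 to 46554747 as deposited), 1901 CPM or 0.190% (0.119 to 0.288).

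The depth of the control sets what the absence of 11 circles from its list can show. At an equal share the most abundant of them, hsa_circ_0005941 of FTO, would have had 0.204 control reads, and 254.3 HD-SB reads are needed for 2 expected in the control. A circle with 1 unlisted control read could still hold up to 5.97% of that library. For these 11 a control share equal to or lower than that of HD-SB could not be detected at this depth. By the rule of size, at least 2-fold on the log2(CPM + 172.861) scale for circRNAs whose average over the libraries was 216 CPM or more, 6 of the 12 entered, of which 5 were higher in HD-SB and 1, RSRC1, was lower. Of all 797 circRNAs that entered, 96.0% were higher and 4.02% lower. Listing in the control fixed these directions. A circRNA unlisted there could enter only through its HD-SB value, which put it at least 2-fold higher. One listed there had at least 2.20% of the control, a share that no circRNA listed in both libraries reached in HD-SB. The 32 lower ones are as many as the 32 listed in the control, so nothing is read from these counts. The 5 higher circles are those of FTO (26 reads), PRPF6, ADARB1, HNRNPC and DROSHA (5 reads), each unlisted in the control. Their log2 ratios of 1.81 to 3.81 are therefore set by the pseudocount. That of RSRC1 was -2.87, or 1.63 with the median-ratio scaling above.

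The circles spanned 1889 bp (RSRC1) to 50555 bp (GPATCH8) of the genome, introns included, with a median of 3896.5 bp, against 4111 bp over the table. The circles of PRPF6, HNRNPC, GPATCH2, DDX17 and both of DROSHA spanned 3094 to 3911 bp. At least 10000 bp was spanned by 4, both circles of FTO (15166 and 44797 bp) and those of CELF1 (16834 bp) and GPATCH8. These 4 held 19.6% of the HD-SB reads of the 10 hosts, against 24.3% for such spans over the library.

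Spans hide how small the circles may be. Added up, the annotated exons between the matched ends came to a median of 362.5 nt, against 371 nt for all placed circRNAs, and to 0.884% (GPATCH8) to 17.0% (RSRC1) of the span. These sums assume that every intron inside is removed and every exon kept, which junction reads do not show. The circles of ADARB1 (290 nt), DROSHA (308 and 309 nt), RSRC1 (322 nt), GPATCH2 (325 nt), FTO (344 and 488 nt), PRPF6 (381 nt), HNRNPC (440 nt), GPATCH8 (447 nt) and DDX17 (451 nt) were all under 500 nt in the transcript used. That of CELF1, with 1498 nt, stood apart. For 4 hosts the sum depended on the transcript with those exon ends, and ran from 90 to 440 nt over 21 transcripts of HNRNPC, from 290 to 506 nt for ADARB1, from 447 to 588 nt for GPATCH8 and from 1498 to 1513 nt for CELF1.

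**Figure D3:**
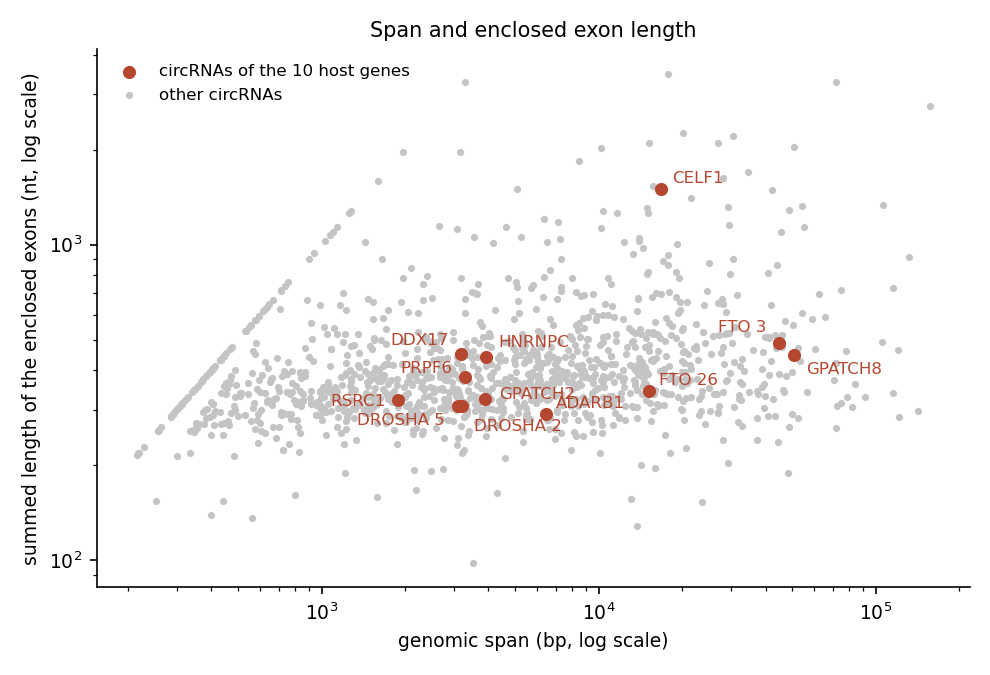
Genomic span (x axis, bp, log scale) against the summed length of the enclosed annotated exons (y axis, nt, log scale) for the 12 circRNAs (red; the numbers after FTO and DROSHA are HD-SB reads) and for the other placed circRNAs (grey). Over spans of 1889 to 50555 bp, 11 of the 12 lie between 290 and 488 nt, and CELF1 lies at 1498 nt.

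The circles took 2 to 5 exons in 11 of the 12 cases (91.7%, against 88.0% of placed circRNAs). There were 3 exons in 6 of the 12 (50%, against 31.7% of placed circRNAs), 2 in RSRC1 and ADARB1, 4 in DDX17 and the longer FTO circle, 5 in GPATCH8 and 12 in CELF1, and none had a single exon. In 5 of the 12 (41.7%, against 32.5%) the first exon was exon 2 of the transcript, in RSRC1, ADARB1, GPATCH8, CELF1 and DDX17. PRPF6 with exons 13 to 15 of 21 and DROSHA with exons 18 to 20 and 25 to 27 of 33 lay farther inside the transcript. The circles of HNRNPC and GPATCH2 both took exons 3 to 5.

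**Figure D4:**
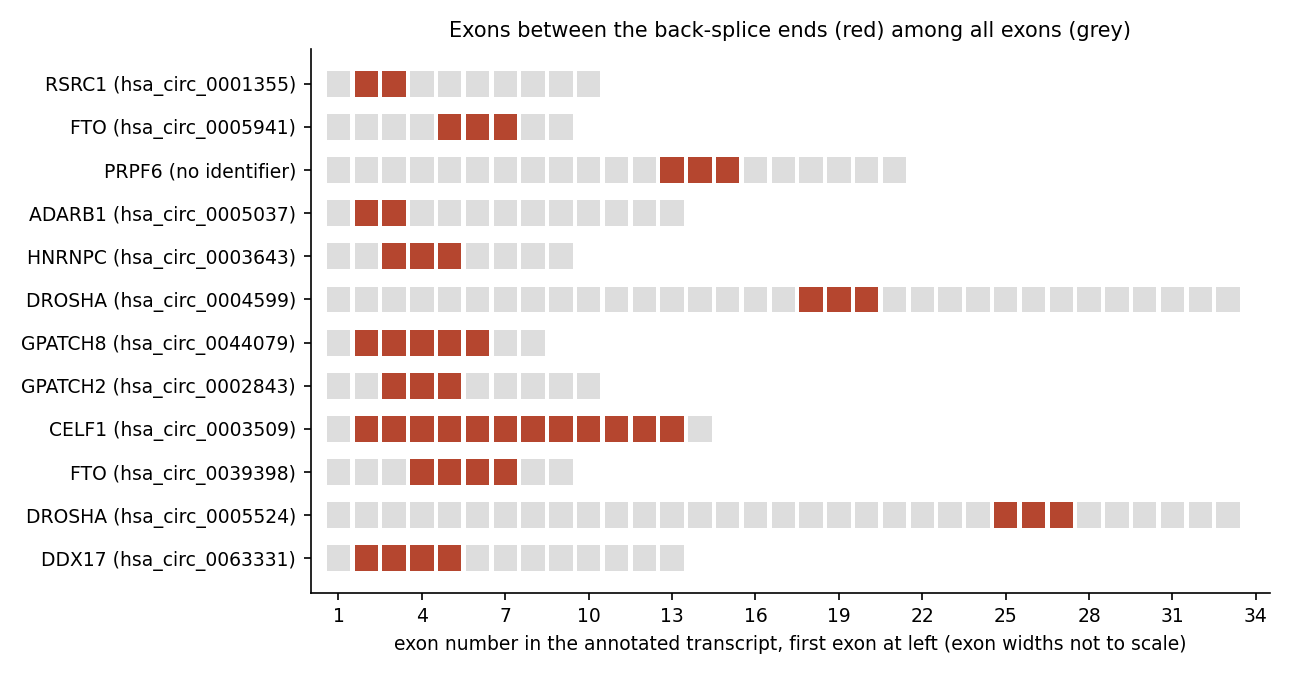
Exons between the matched back-splice ends (red) among all exons of the annotated transcript (grey) for the 12 circRNAs (rows); the x axis is the exon number and widths are not to scale. Red blocks begin at exon 2 in 5 rows, the FTO rows both end at exon 7, and the CELF1 block runs from exon 2 to exon 13 of 14.

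Coding sequence filled 8 of the 12 circles whole (66.7%, against 80.2% of placed circRNAs). RSRC1 held 320 coding bases of 322, HNRNPC 404 of 440 and CELF1 1446 of 1498. These 3 include the annotated start codon (25% of the circles, against 15.8%). CELF1 also includes the last annotated coding base (8.33% of the circles, against 1.51%), so its exons cover the annotated coding sequence of that transcript from end to end. ADARB1 was the opposite case, since its exons 2 and 3 lie in processed transcripts, which have no annotated coding sequence. The exon sum was a multiple of 3 in PRPF6 (381 nt), GPATCH8 (447 nt) and the DROSHA circle of 309 nt, 25% of the circles against 37.4% of placed circRNAs. The GC content ran from 42.1% in that DROSHA circle to 64.8% in PRPF6, with a median of 47.1%, against 49.7% for placed circRNAs.

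Long introns beside the circularised exons are a known feature of many circRNA genes. The intron before the first exon had a median of 15129 bp here, against 7383 bp for all placed circRNAs, and the intron after the last exon 17749 bp, against 6672 bp. Both were at least 10000 bp long in 7 of the 12 (58.3%, against 26.2%), namely RSRC1 (11891 and 79080 bp), both circles of FTO, ADARB1 (53608 and 36777 bp), HNRNPC (29081 and 17201 bp), GPATCH8 and the DROSHA circle of 5 reads. At the other end, PRPF6 had 5911 and 923 bp and DDX17 4670 and 2147 bp. Reads did not follow the length of the following intron throughout. PRPF6 with 25 reads had the shortest of the set and GPATCH2 with 4 reads had the longest, at 95431 bp. The intron before the first exon of GPATCH2 was 5580 bp. The other circles with at least 20 reads, those of RSRC1, FTO (26 reads), ADARB1 and HNRNPC, all had both introns of at least 10000 bp. The comparison with the table was not tested, and circles of 1 host are not independent. The FTO circles share a following intron of 45033 bp, which was counted for each.

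**Figure D5:**
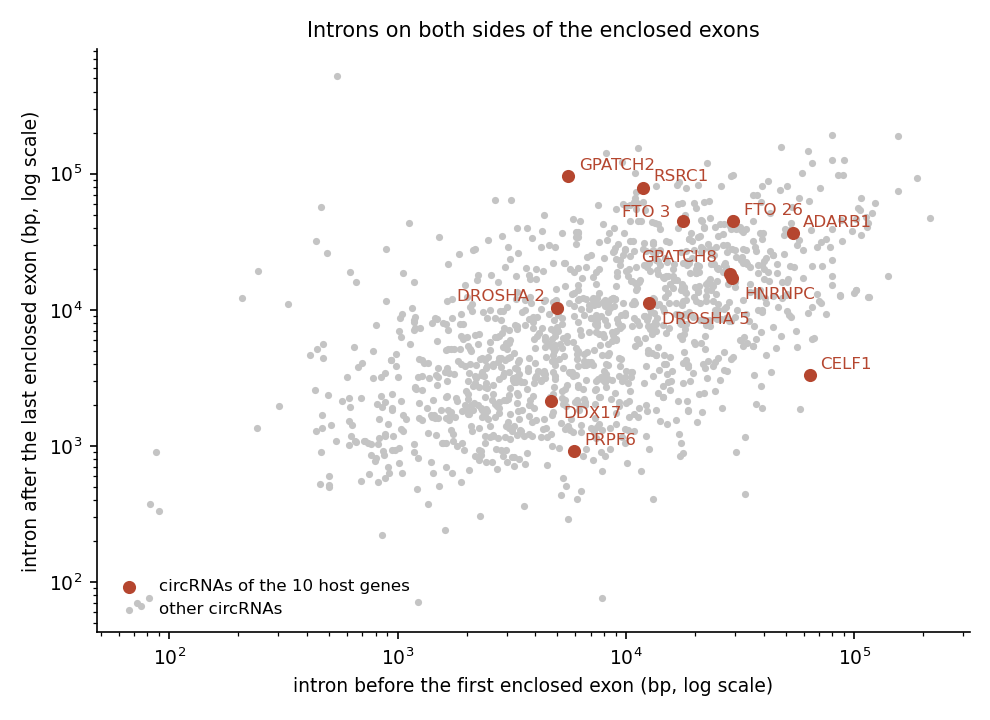
Length of the annotated intron before the first enclosed exon (x axis, bp, log scale) against that after the last one (y axis, bp, log scale) for the 12 circRNAs (red; the numbers after FTO and DROSHA are HD-SB reads) and the other placed circRNAs (grey). In 7 of the 12 both introns are at least 10000 bp, and PRPF6, at 5911 and 923 bp, is the lowest on the y axis.

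The title of the series names hsa-miR-204-5p as a microRNA bound by a circRNA, so the exon sums were searched for a match to its seed, bases 2 to 8, across the back-splice junction as well. The mature sequence is given by RefSeq (GRCh38.p14, chr9:70810031-70810052, minus strand), with the seed in capitals. The site searched was AAAGGGA on the transcribed strand, and capitals mark it in the DROSHA line.

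hsa-miR-204-5p: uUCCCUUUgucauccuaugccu
DROSHA miR-204-5p seed match: acatgcggaagAAAGGGAttaacaccttga

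The match was present in 1 of the 12 circles, hsa_circ_0004599 of DROSHA, where it begins in exon 19 and ends in exon 20 and so exists only after splicing. Over all placed circRNAs 58 of 1262 (4.60%) held it, and 11 of the 344 with an exon sum of 280 to 340 nt (3.20%). It is a match of letters, not a shown binding site, and this circle had 5 reads in HD-SB.

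Other RNA processing genes were listed mostly with few reads. Lists of 249 further genes gave 46 circRNAs from 37 hosts and 251 HD-SB reads, 2.17% (1.91 to 2.45), and 0 in the control. Core spliceosome genes gave 10 circRNAs and 40 reads, led by SF3B3, a subunit of the U2 particle, with 12, and DDX23 and SART3 with 6 each. SR and hnRNP proteins gave 8 and 42, with HNRNPM circles of 10 and 7 reads and SYNCRIP with 7. Regulators of alternative and back-splicing gave 7 and 63, with RBM39 at 23, MATR3 at 12 and KHDRBS1 at 9. Of the 46 circRNAs only that of RBM39 reached the 20 reads of the 5 leading circles above, and 5.29% of all circRNAs listed in HD-SB did. The 10 hosts were named with earlier results in view, so the contrast is a description. RNA editing and RNA methylation genes gave 3 and 29, and no editing gene was among these hosts. METTL3, the catalytic subunit that writes the mark FTO removes, had 14, the second known demethylase ALKBH5 had 8, and NSUN2 had 7. Small RNA processing genes gave 4 and 11, with SND1, XPO5 and ZCCHC11 at 3 each. Polyadenylation, export and decay genes gave 12 and 48, with FIP1L1 at 7, PUM2 at 6 and XRN2 at 5. G-patch proteins gave 2 and 18, with RBM6 at 15 and GPKOW at 3. The hosts that gave a single circle were 8 of the 10, and over the HD-SB list 81.2% of hosts did so.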

How the data were processed

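RNA of SW620 cells, freed of ribosomal RNA and digested with RNase R, was fragmented and amplified, per the labels' protocols. FastQC, HISAT2 2.1.0 and GRCh38 appear in the submitters' processing notes with no role. For the circRNA caller, filters and duplicate removal, a description is not given in the sources used here. The deposited columns are headed TPM but hold CPM, per the file headers and values: each adds up to 1000000, and 100% of listed values are whole multiples of the value of 1 read (tolerance 0.01 read) for every span. Dividing by that value gave reads. The value 0.001 marks a circRNA not listed, that is 0 or 1 read.

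Only 13 of 1262 placed circRNAs had the same positions in the table and in GENCODE 29, so the build of the table was not established and no coordinate was converted. Of 1377 circRNAs with 1 host name, 1312 hosts matched by symbol and 33 by a RefSeq synonym. Where several transcripts had the exon ends, the coding one with the best APPRIS rank was used, then one with a consensus coding sequence. A span with 2 possible pairs (16 circRNAs) was left out. The procedure was tested on simulated data.

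There is 1 library per group, so no p-value is given. Shares have 95% Clopper-Pearson intervals, and ratios an interval given the total of both libraries' reads on the circRNA. The pseudocount of 172.861 CPM is the 5th percentile of listed values. Single circles were described if most abundant of their host, listed in the control, sharing an end with another circle of the host, or shortest or longest, and of other RNA processing genes the 3 with the most HD-SB reads per list; with 12 members all are given. Some items that this rule names are not reported here. The members and lists were chosen with earlier results of these data known, and the exon placement, the microRNA search and the intron lengths were added after the data were seen. Python 3.11.15, numpy 2.4.6, pandas 2.3.3, scipy 1.17.1 and matplotlib 3.10.9 were used.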

Additional observations from a re-analysis of the deposited data

How the results depend on the processing

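The HD-SB share of 1.59% became 1.32% without the most abundant circle of FTO and DROSHA, 1.00% without RSRC1 and 1.34% without FTO, and 0.814% as a share of circRNAs in place of reads. Leaving out the other 8 hosts in turn, requiring a circBase identifier or at least 3 or 5 reads, and allowing other names in the host field kept it within its interval. The control share of 4.40% became 0% without RSRC1 and 0% with at least 5 reads, since all of it is 4 reads of RSRC1. The 12 circles listed in HD-SB became 6 with at least 5 reads. The 5 circles at least 2-fold higher became 11 with no filter and 0 among circRNAs in both libraries, and the 1 lower became 0 with control values scaled by the median ratio (a factor of 0.0406), which turned the log2 ratio of RSRC1 to 1.63. That scaling is centred on the 22 shared circRNAs, of which RSRC1 is one. The larger pseudocount left 4 higher, and the 4-fold threshold and the stricter filter also left 4. The median span stayed between 3606.5 and 5171 bp. With the shortest or longest transcripts, chosen after the data were seen, the median exon sum was 334.5 or 410.5 nt. No paired analysis was possible because there is 1 library per group. Depth limits all of this through the 91 reads of the control.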
